A study of Mus musculus with 8 samples.

Results

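The genes that encode the constant regions of antibodies, the joining chain that links them into polymers and the receptor that carries those polymers across the epithelium were examined in the colon of chimeric mice whose bone marrow lacked or carried the gene for the opioid precursor proenkephalin. They were taken by name, 10 genes of the 26008 listed: the heavy chain constant genes Igha, Ighm, Ighd, Ighg1, Ighg2b, Ighg2c and Ighg3, the kappa light chain constant gene Igkc, the joining chain gene Jchain and the polymeric immunoglobulin receptor gene Pigr. The recipients were male C57BL/6JRj mice, lethally irradiated at 7 weeks of age and engrafted with marrow of male donors aged 9 to 11 weeks, either preproenkephalin-knockout mice of a B6.129 strain (penk-/- chimeras) or age-matched wild-type mice (penk+/+ chimeras). Colonic biopsies were taken 18 weeks after engraftment by the study's figure legend, and 18 to 21 weeks by its general methods. They came from 4 chimeras of each genotype, and each mouse gave 1 RNA-seq library. Both groups thus share irradiation, engraftment and a wild-type host. In penk-/- chimeras the deletion is carried by cells that grew from the graft, which include B cells and plasma cells, whereas the epithelium that makes Pigr remains that of the host. Host plasma cells that survive irradiation would keep the intact gene, and donor and host cells cannot be told apart in these libraries.

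Plasma cells of the intestinal lamina propria secrete mostly IgA, built as a dimer in which the joining chain bridges the tails of a pair of antibody units. IgM is the other class that takes the joining chain, and IgG is secreted without it. The polymeric immunoglobulin receptor binds the joined antibody on the basal side of epithelial cells, takes it through the cell in vesicles and releases it into the lumen together with a cleaved part of the receptor, the secretory component. Naive B cells carry IgM and IgD on their surface, and a switch of the heavy chain gene in activated B cells gives IgG or IgA.

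The ends of the coding sequences show which chains can form polymers, and are printed for that reason. In the secreted forms of Igha and Ighm the last exon closes with a tailpiece whose next-to-last amino acid codon encodes the cysteine that bonds to the joining chain or to another heavy chain. Ighg1 and Ighg2b have no cysteine codon in the same stretch. The last amino acid codon of Igkc encodes the cysteine that bonds the light chain to the heavy chain. Each run is the last 57 bases up to and including the stop codon, 5′ to 3′ on the coding strand, with cysteine codons in capitals, from the GENCODE M39 transcripts of GRCm39, the secreted one for each heavy chain.
Igha (chr12:113222388-113222444, minus strand, exon 3 of 3): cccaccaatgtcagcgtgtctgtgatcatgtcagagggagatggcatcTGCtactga
Ighm (chr12:113384487-113384543, minus strand, exon 4 of 4): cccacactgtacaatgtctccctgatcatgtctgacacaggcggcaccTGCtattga
Ighg1 (chr12:113292596-113292652, minus strand, exon 4 of 4): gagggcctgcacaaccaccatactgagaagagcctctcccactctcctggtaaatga
Ighg2b (chr12:113270009-113270065, minus strand, exon 4 of 4): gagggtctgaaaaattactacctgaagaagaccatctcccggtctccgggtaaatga
Igkc (chr6:70703685-70703741, plus strand, its only exon): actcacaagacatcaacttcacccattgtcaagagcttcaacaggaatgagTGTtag

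The 7 heavy chain constant genes lie in 1 cluster on the minus strand, from Ighm (chr12:113382178-113386350) at the start to Igha (chr12:113218450-113223856) at the end. Igkc lies at chr6:70703419-70703950 on the plus strand, Jchain at chr5:88667668-88675750 on the minus strand with 4 exons, and Pigr at chr1:130754397-130779986 on the plus strand with 13 exons (GRCm39). No stretch of 100 bases in the transcripts of any of the 7 heavy chain genes was found in another of the 7, nor was one shared between Igkc, Iglc1, Iglc2 and Iglc3. Igkc overlaps a long non-coding RNA gene on the opposite strand, Gm68839, by 521 exon bases. That gene is not analysed here, and the libraries were stranded.

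The promoter of Pigr is printed because a hexamer in it is the recognition site of the factors Usf1 and Usf2, whose genes are described further on. The window runs from 250 bases before to 50 bases after the start (RefSeq, GRCm38.p6, chr1:130826434-130826733, plus strand), and the capitals mark the hexamer, which begins 71 bases before the start.
Pigr promoter: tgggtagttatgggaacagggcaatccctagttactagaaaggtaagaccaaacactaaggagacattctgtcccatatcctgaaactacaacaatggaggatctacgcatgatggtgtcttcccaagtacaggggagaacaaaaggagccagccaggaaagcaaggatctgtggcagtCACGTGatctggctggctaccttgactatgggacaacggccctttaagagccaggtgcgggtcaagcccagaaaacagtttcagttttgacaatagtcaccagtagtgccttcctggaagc
The motifs searched on both strands were CACGTG, the octamer ATGCAAAT of immunoglobulin promoters and the TATA box TATAAA. Of 32544 promoter windows, 7.17% held CACGTG, 1.75% the octamer and 13.6% the TATA box. CACGTG was the only one of the 3 found in the window of Pigr, and none was found in that of Jchain, the other of the 2 members with an entry in the promoter table.

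Estimated from the smallest step between values, the libraries held 33.1 to 50.7 M reads on genes, with a median of 38.5 M. Penk itself was at 453, 512, 616 and 531 normalized counts in penk-/- chimeras and at 473, 496, 560 and 636 in penk+/+ chimeras, so that the level in whole colon did not separate the genotypes and could not check the labels. Markers of epithelium (Epcam, 48569 to 70453) and of smooth muscle (Myh11, 58199 to 97282) were high in every library. Genes of male accessory glands were also present: Pbsn was at 105658 in penk-/- replicate 3 and 111024 in penk+/+ replicate 4, at 0 in penk-/- replicate 1 and penk+/+ replicate 3, and at 2398 to 13425 in the others.

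Among the constant genes, none separated the genotypes: the ranges of penk-/- and penk+/+ chimeras overlapped in all 10, where 5.63% of the 19127 genes tested had groups that did not overlap (2.74% lower and 2.89% higher in every penk-/- chimera). A gene was tested where its mean normalized count was at least 10, which 9 of the 10 members reached (all but Ighg3). With limma on log2(normalized count + 1), 0 of the 9 had an adjusted p below 0.05, against 0.0% of all genes tested, the smallest adjusted p over all genes being 0.132. At an unadjusted p below 0.05 there was 1 of the 9, Pigr, which was lower in penk-/- chimeras. This share is to be read against 9.63% of all genes, or 5.33% in that direction. The median log2 difference of the 9 members was -0.26 and that of all genes tested 0.01.

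**Figure D1:**
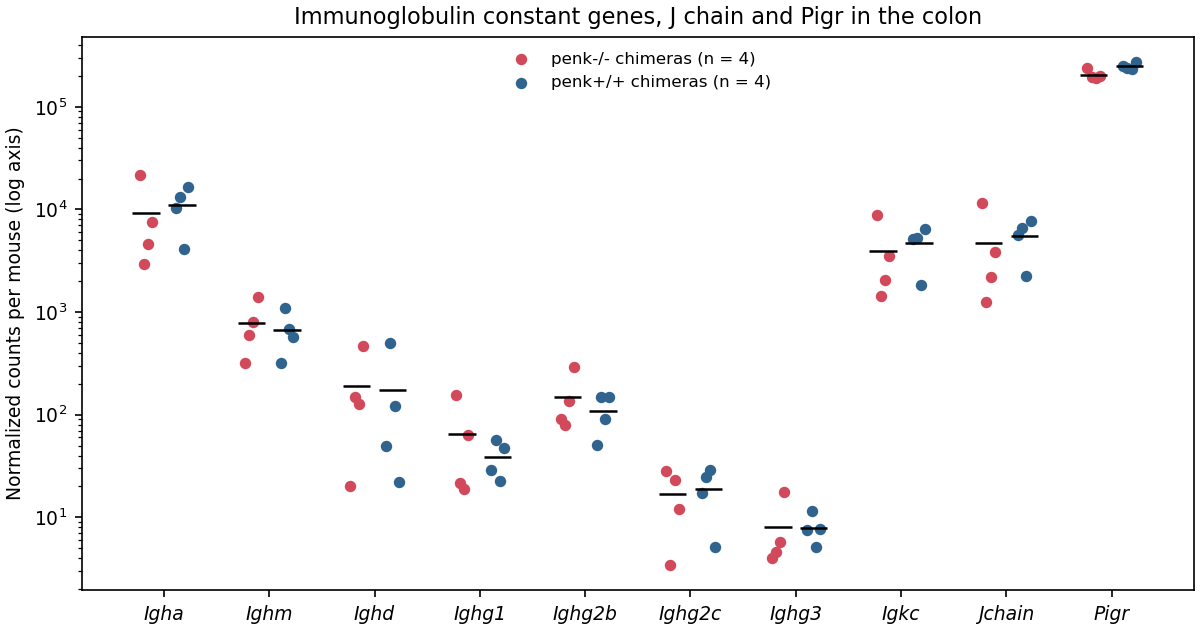
Normalized counts of the 10 genes in each mouse on a log axis, with penk-/- chimeras in red, penk+/+ chimeras in blue and a black bar at the mean of each group of 4. Igha, Igkc and Jchain spread over several fold within each genotype, whereas Pigr lies between 189589 and 273454 in all 8 mice.

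Igha, the heavy chain of IgA, was the most abundant heavy chain gene in every mouse. It was at 21422, 2968, 4627 and 7555 normalized counts in penk-/- replicates 1 to 4 and at 10293, 13200, 4152 and 16399 in penk+/+ replicates 1 to 4. The highest mouse and the lowest mouse were both penk-/-, and 3 of the 4 penk-/- chimeras were below the median of the penk+/+ chimeras. Penk-/- chimeras averaged 9143 ± 8402 and penk+/+ chimeras 11011 ± 5209 (SD, n = 4 each), with a log2 difference of -0.51 with a standard error of 0.60 (limma, adjusted p = 0.832). The 95% interval of the difference, from -1.86 to 0.83, spans zero. The difference was -1.06 without penk-/- replicate 1, -0.11 without penk-/- replicate 2, -0.93 without penk+/+ replicate 3 and -0.08 without both libraries with the most Pbsn (limma, adjusted p from 0.430 to 0.988). The lowest and highest mouse differed 7.22-fold, and 98.0% of the genes tested had a smaller SD within the genotypes on the log2 scale than Igha. Ranked by normalized count among all genes of its library, Igha stood between place 210 (penk-/- replicate 1) and place 2999 (penk-/- replicate 2). In bulk tissue, fewer cells of a type and less RNA per cell cannot be told apart.

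Ighm, the heavy chain of IgM, was at 319, 598, 794 and 1412 normalized counts in penk-/- and at 322, 1086, 684 and 572 in penk+/+ chimeras. The ranges overlapped almost fully (log2 difference 0.16, standard error 0.46, limma adjusted p = 0.944). Ighd, the heavy chain of IgD, which naive B cells make together with IgM, was the most variable member. It was at 20.2, 149, 128 and 464 in penk-/- and at 49.8, 501, 121 and 22.3 in penk+/+ chimeras, 24.8-fold from the lowest to the highest mouse. Each genotype held 1 mouse at the low end and 1 at the high end of this range, and the log2 difference of 0.35 had a 95% interval from -2.03 to 2.73 (limma, adjusted p = 0.947).

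The IgG subclass genes were far below Igha. Ighg2b was at 90.9, 80.1, 137 and 293 normalized counts in penk-/- and at 51.0, 149, 89.9 and 147 in penk+/+ chimeras. Ighg1 was at 156, 21.8, 18.9 and 63.0 in penk-/- and at 28.6, 57.1, 22.5 and 47.2 in penk+/+ chimeras, so that its highest mouse was penk-/- replicate 1, as for Igha. Ighg2c, the form that C57BL/6 mice carry in place of Ighg2a, was at 28.3, 3.43, 23.3 and 12.2 in penk-/- and at 17.4, 24.7, 28.6 and 5.14 in penk+/+ chimeras. For these genes the log2 differences were 0.38 (Ighg2b), 0.31 (Ighg1) and -0.26 (Ighg2c), with standard errors of 0.45, 0.62 and 0.67 and adjusted p-values of 0.837, 0.915 and 0.933 (limma). Ighg3 was at 4.04, 4.58, 5.81 and 17.7 in penk-/- and at 7.47, 11.4, 5.11 and 7.72 in penk+/+ chimeras, below the filter. An estimated 4 to 16 reads per library lie behind these values of Ighg3, and 3 to 32 behind those of Ighg2c.

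**Figure D2:**
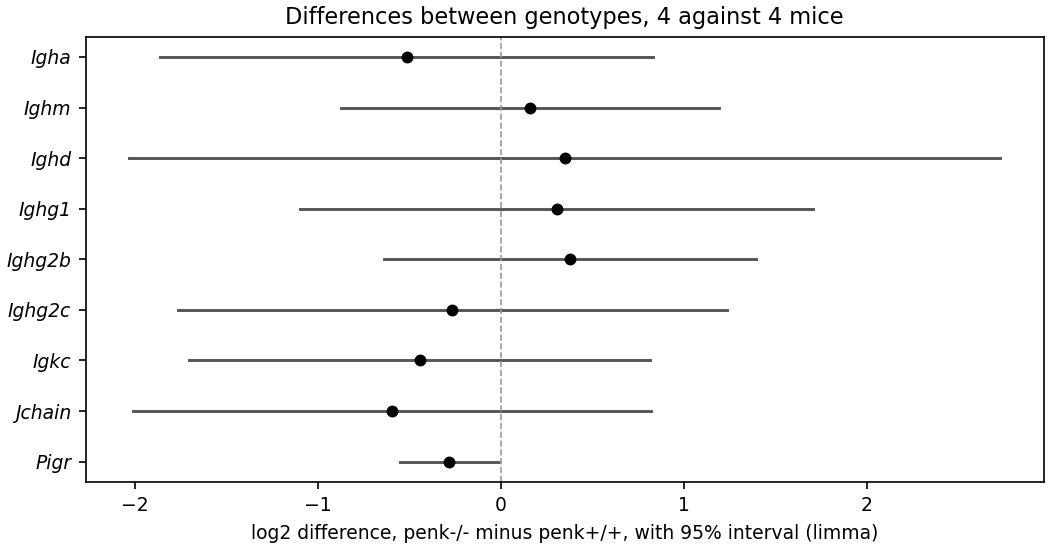
Difference between penk-/- and penk+/+ chimeras for the 9 genes past the filter, as log2(normalized count + 1), with points for the estimate and bars for the 95% interval of limma (n = 4 mice per genotype). The intervals of 8 genes cross zero, and that of Pigr reaches from -0.55 to -0.01.

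To compare genes with each other, levels were divided by the exon length of each gene in kilobases. On this scale Pigr stood at 46824 to 67536 per kilobase over the 8 mice, Igkc at 2722 to 16696, Igha at 1113 to 8029, Jchain at 503 to 4577 and Ighm at 169 to 749. This order, Pigr, Igkc, Igha, Jchain, Ighm, held in each of the 8 mice with the union of all exons of a gene as its length, although the ranges of Igkc, Igha and Jchain over mice overlapped. With the length of the secreted transcript, an alternative added after the data were seen, Igha was above Igkc in 6 of the 8 mice, and Pigr, Jchain and Ighm kept their places. Ighd stood at 10.6 to 264 per kilobase, Ighg2b at 19.1 to 109, Ighg1 at 7.29 to 60.0, Ighg2c at 2.59 to 21.6 and Ighg3 at 1.61 to 7.04. The order of Ighd and Ighg2b differed between mice: Ighg2b was above Ighd in penk-/- replicate 1 and penk+/+ replicate 4.

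The isotype shares asked whether the mix of antibody classes, rather than their amount, differed by the genotype of the graft. IgA took most of the heavy chain level in every mouse. Its share of the 7 heavy chain genes, per kilobase, was 96.4%, 71.8%, 75.4% and 71.2% in penk-/- and 94.1%, 84.0%, 76.0% and 94.0% in penk+/+ chimeras. In penk-/- chimeras replicate 1 stood apart and the other 3 were below every penk+/+ chimera. The means of 78.7% ± 11.96 and 87.0% ± 8.73 (SD, n = 4 each) differed by -8.30 percentage points (exact permutation test, two-sided, p = 0.286, p = 0.549 adjusted over the 8 shares and ratios tested). With 4 mice against 4 this test can give no p below 0.0286. Without penk-/- replicate 1 the difference in IgA share was -14.2 percentage points (exact permutation test, two-sided, p = 0.0571). Since this rests on leaving out the 1 penk-/- mouse above every penk+/+ chimera, no conclusion is drawn from it. Leaving out any other single mouse gave -12.0 to -5.82 percentage points (exact permutation test, two-sided, p = 0.2 to 0.514). Those reads that come from the membrane exons count toward each gene as well, so that a share covers secreted and surface antibody.

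The share of Ighm mirrored that of Igha, which follows largely from their being the largest parts of 1 sum. It was 2.03%, 20.4%, 18.3% and 18.8% in penk-/- and 4.17%, 9.78%, 17.7% and 4.64% in penk+/+ chimeras, and the means of 14.9% ± 8.63 and 9.07% ± 6.29 (SD, n = 4 each) differed by 5.83 percentage points (exact permutation test, two-sided, p = 0.343). This difference was 10.1 percentage points without penk-/- replicate 1 (exact permutation test, two-sided, p = 0.0571). No conclusion is drawn from this either, since the mouse left out was the only penk-/- chimera below every penk+/+ chimera. Leaving out any other single mouse gave 3.98 to 8.71 percentage points (exact permutation test, two-sided, p = 0.2 to 0.6). The difference was 3.22 without both libraries with the most Pbsn and 3.51 with the secreted transcript length. The 4 IgG genes together took 1.404%, 2.76%, 3.40% and 3.77% in penk-/- and 1.13%, 1.71%, 3.22% and 1.23% in penk+/+ chimeras. Their difference of 1.01 percentage points was within the spread between mice (exact permutation test, two-sided, p = 0.229). Ighd ranged from 0.128% in penk-/- replicate 1 to 6.15% in penk-/- replicate 4. For the 3 shares the adjusted p was 0.549.

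**Figure D3:**
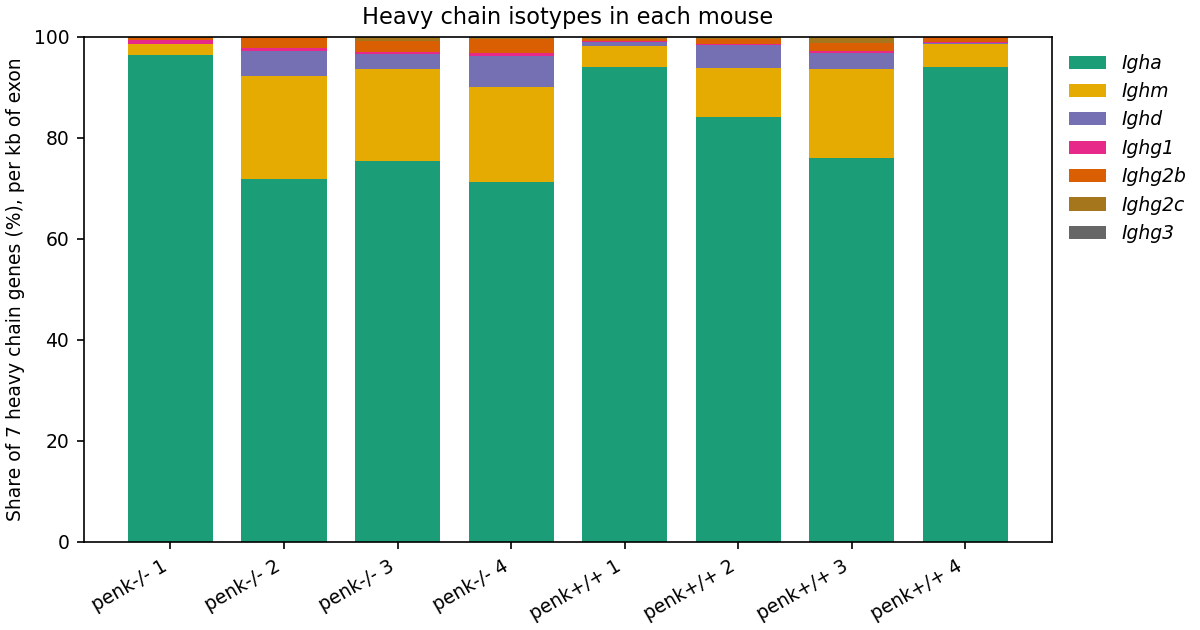
Share of each of the 7 heavy chain genes in each mouse, in percent of their summed level per kilobase of exon. Igha fills 71.2% to 96.4% of each bar, and the mice with the smallest Igha share (penk-/- replicates 2, 3 and 4 and penk+/+ replicate 3) have the widest Ighm segment.

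Igkc, the constant region of the kappa light chain, followed the heavy chain. It was at 8882, 1448, 2058 and 3497 normalized counts in penk-/- and at 5093, 5280, 1820 and 6480 in penk+/+ chimeras (log2 difference -0.44, standard error 0.56, limma adjusted p = 0.849). The difference was -0.95 without penk-/- replicate 1, -0.08 without penk-/- replicate 2, -0.85 without penk+/+ replicate 3 and -0.04 without both libraries with the most Pbsn. Kappa made up nearly all of the light chain in each mouse. Its share of Igkc and the 3 lambda genes Iglc1, Iglc2 and Iglc3, per kilobase, was 91.8%, 93.4%, 95.4% and 91.1% in penk-/- and 93.4%, 92.5%, 94.5% and 92.9% in penk+/+ chimeras (difference -0.38 percentage points, exact permutation test, two-sided, p = 0.743, adjusted p = 0.743). The ratio of Igkc to the summed heavy chain averaged 0.82 ± 0.13 for penk-/- and 0.90 ± 0.22 for penk+/+ chimeras on the log2 scale (SD, n = 4 each; exact permutation test, two-sided, p = 0.60, adjusted p = 0.686). Of the lambda genes, Iglc1 was the highest, at 550, 56.1, 64.0 and 222 normalized counts in penk-/- and 173, 223, 66.4 and 307 in penk+/+ chimeras. Of the list of 5 other constant genes, Iglc1, Iglc2 and Iglc3 passed the filter. Of these, 0 had an unadjusted p below 0.05, beside 9.63% of all genes. The smallest p-values in this list were those of Iglc3 (log2 difference -0.60, limma adjusted p = 0.747) and Iglc2 (-0.72, limma adjusted p = 0.834). Ighe, the heavy chain of IgE, was at 0 to 7.61, with 0 reads in 3 libraries, and Iglc4 is not analysed here.

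Jchain, the bridge of polymeric IgA and IgM, was at 11521, 1266, 2197 and 3844 normalized counts in penk-/- and at 5629, 6566, 2248 and 7711 in penk+/+ chimeras. As for Igha, penk-/- replicate 1 was the highest and penk-/- replicate 2 the lowest of the 8 mice, 9.10-fold apart (log2 difference -0.59, standard error 0.63, limma adjusted p = 0.810). The difference was -1.19 without penk-/- replicate 1, -0.13 without penk-/- replicate 2, -0.98 without penk+/+ replicate 3 and -0.19 without both libraries with the most Pbsn. The ratio of Jchain to the chains it joins, Igha plus Ighm per kilobase, was -0.84, -1.51, -1.30 and -1.23 on the log2 scale in penk-/- and -0.85, -1.08, -1.10 and -1.07 in penk+/+ chimeras. The means differed by -0.19 (exact permutation test, two-sided, p = 0.314, adjusted p = 0.549). Penk-/- replicates 2, 3 and 4 were below every penk+/+ chimera and replicate 1 was above them all. Without penk-/- replicate 1 the groups no longer overlapped, and the difference was -0.32. The unadjusted p was then 0.0286 (exact permutation test, two-sided), the smallest that 3 mice against 4 can give. Since this rests on leaving out the 1 mouse on the other side, no conclusion is drawn from it. With any other single mouse left out, the unadjusted p of this test was 0.314 to 0.629.

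Across the 8 mice, the genes that make up secreted IgA varied together. The correlation of Igha with Jchain on the log2 scale gave r = 0.995 (permutation over all pairings, p = 4.96e-05, adjusted over 6 relations 1.49e-04) and rho = 0.976 (permutation p = 3.97e-04, adjusted 0.00119). Igha with Igkc gave r = 0.995 (permutation p = 2.48e-05, the smallest possible, adjusted 1.49e-04) and rho = 1.0 (permutation p = 4.96e-05, adjusted 2.98e-04). Without the 2 mice farthest from the median of Igha, r was 0.994 with Jchain and 0.989 with Igkc. With the genotype means subtracted it was 0.995 with either gene. Reads of these genes share a library and its size factor. Igha was at the same time negatively correlated with smooth muscle (r = -0.93 with the mean of 8 genes, a description) and positively with epithelium (r = 0.72 with the mean of 12 genes). Summed, the smooth muscle markers stood at 163291 to 275147 normalized counts in penk-/- and 172154 to 266222 in penk+/+ chimeras, and their part in the spread of Igha was not tested.

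**Figure D4:**
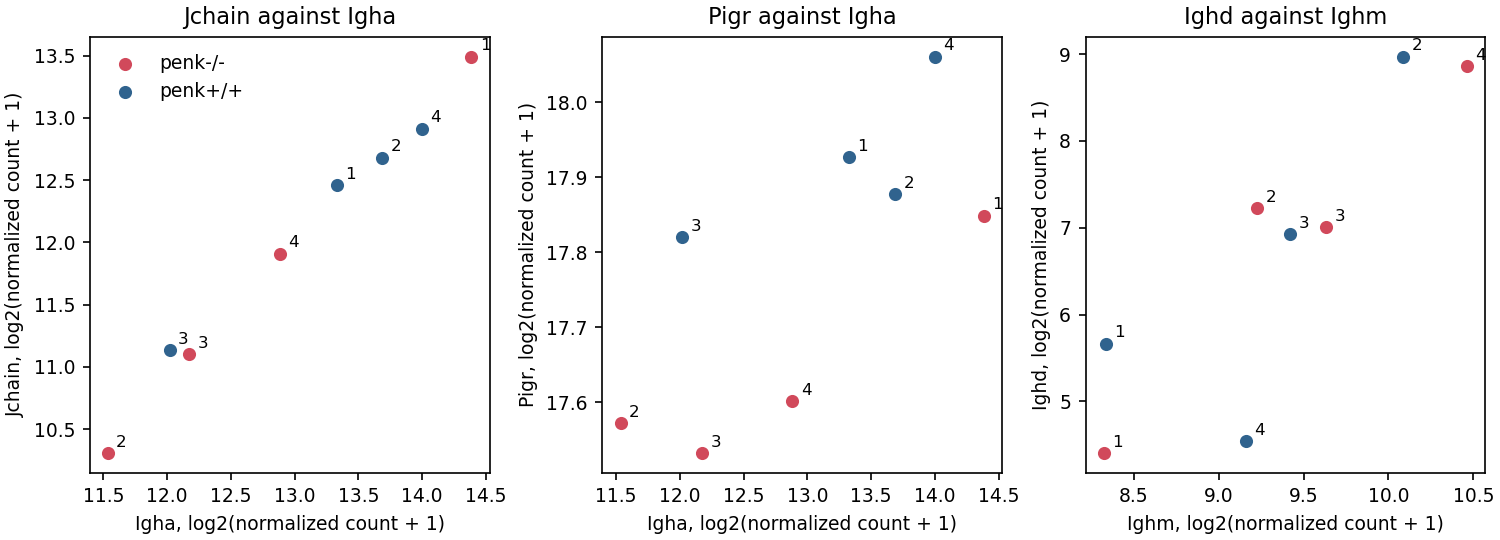
Jchain against Igha, Pigr against Igha and Ighd against Ighm, each as log2(normalized count + 1), with 1 point per mouse, penk-/- in red and penk+/+ in blue, labelled by replicate number. Jchain and Igha lie close to a line (r = 0.995), Pigr and Igha give r = 0.72, and Ighd follows Ighm (r = 0.86).

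Ighm and Ighd did not follow Igha. Their r with Igha was -0.31 and -0.45, and Ighm with Ighd gave r = 0.86 over the 8 mice (descriptions). Ighm followed instead the mean of 12 B cell markers (Ms4a1, Cd22, Fcer2a and others), with r = 0.88 (permutation p = 0.00645, adjusted 0.0129) and rho = 0.857 (permutation p = 0.0107, adjusted 0.0161). Without the 2 mice farthest from the median of the marker mean, r was 0.97, and without both libraries with the most Pbsn 0.99. For Ighd the r with the same markers was 0.99. Among the IgG genes, Ighg1 went with Igha (r = 0.82) and Ighg2b with Ighm (r = 0.84).

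The B cell markers themselves varied widely within each genotype. Summed, they stood at 353 to 2891 normalized counts in penk-/- and 326 to 2762 in penk+/+ chimeras. At an unadjusted p below 0.05 there were 0 of the 12, beside 9.63% of all genes. Of the 12, 11 were higher and 1 lower in penk-/- chimeras. Their median log2 difference of 0.39 depended on single mice: it was -0.12 without penk-/- replicate 4, -0.05 without penk+/+ replicate 4, 0.10 without penk+/+ replicate 1, 1.19 without penk-/- replicate 1, 1.13 without penk+/+ replicate 2, 0.73 without penk+/+ replicate 3 and -0.09 without both libraries with the most Pbsn. The smallest p-values were those of Cxcr5, the receptor that guides B cells to follicles (log2 difference 1.11, standard error 0.96, limma adjusted p = 0.755), and Fcmr, a receptor for IgM (log2 difference 0.90, standard error 1.11, limma adjusted p = 0.844).

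The mean of the 11 plasma cell genes past the filter followed Igha only loosely over all 8 mice (r = 0.58, permutation p = 0.136, adjusted 0.136; rho = 0.667, permutation p = 0.0831, adjusted 0.0831), and r was 0.33 without the 2 mice farthest from the median of that mean. Without both libraries with the most Pbsn, r was 0.92. Some genes of this list were highest in those libraries: Derl3 was at 861 and 711 normalized counts there and at 29.6 to 177 in the other 6, and Fkbp11 at 400 and 415 against 84.8 to 179. Tnfrsf17, the receptor BCMA that keeps plasma cells alive, was at 50.5, 3.43, 9.45 and 15.5 in penk-/- and at 12.4, 20.9, 6.13 and 26.6 in penk+/+ chimeras, with the same highest and the same lowest mouse as Igha. Per kilobase and relative to the mean of all 12 plasma cell genes, Igha averaged 5.02 ± 1.13 for penk-/- and 5.52 ± 0.50 for penk+/+ chimeras on the log2 scale (SD, n = 4 each; exact permutation test, two-sided, p = 0.457, adjusted p = 0.610). This difference of -0.51 was -1.01 without penk-/- replicate 1, -0.22 without penk-/- replicate 2, -0.21 without penk-/- replicate 3 and -0.15 without both libraries with the most Pbsn. Of the 11 plasma cell genes tested, 1 was higher and 1 lower in penk-/- chimeras at an unadjusted p below 0.05, beside 4.3% and 5.33% of all genes, and 0 passed the adjusted threshold. Prdm1, the regulator of plasma cell differentiation, was at 198, 189, 162 and 172 in penk-/- and at 275, 324, 336 and 209 in penk+/+ chimeras. Its groups did not overlap, as for 2.74% of the genes tested in this direction (log2 difference -0.64, standard error 0.16, limma adjusted p = 0.339). Txndc5, an enzyme of protein folding, was at 8362, 8649, 7782 and 8026 in penk-/- and at 7566, 7442, 7408 and 7559 in penk+/+ chimeras, without overlap in the opposite direction, as for 2.89% (log2 difference 0.13, standard error 0.05, limma adjusted p = 0.481). Prdm1 and Txndc5 are also made in other cells than plasma cells, including epithelium. The highest mouse was 1.52-fold above the lowest for Sdc1, 1.22-fold for Xbp1 and 1.17-fold for Txndc5. For Tnfrsf17, whose r with Igha was 0.96, it was 14.7-fold. The mean of this list is thus not a measure of plasma cells alone, and the ratio of Igha to it is not IgA per plasma cell.

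Pigr was among the most abundant transcripts of the colon, between place 4 and place 7 of its library in all 8 mice. It was at 236082, 194942, 189589 and 198839 normalized counts in penk-/- and at 249124, 240835, 231372 and 273454 in penk+/+ chimeras. In penk-/- chimeras, 3 of 4 mice were below the lowest penk+/+ chimera, and replicate 1 was within the penk+/+ range. The means were 204863 ± 21155 and 248696 ± 18028 (SD, n = 4 each), a log2 difference of -0.28 with a standard error of 0.12 and a 95% interval from -0.55 to -0.01 (limma, unadjusted p = 0.0428, adjusted p = 0.501). The spread of Pigr was ordinary, with 29.1% of the genes tested having a smaller SD within the genotypes. The unadjusted p was above 0.05 when any single mouse other than penk-/- replicate 1 was left out, the difference then lying between -0.32 and -0.24, and also with a pseudocount of 8, a minimum mean of 50 or quantile normalization. In other settings the unadjusted p was smaller than reported. It was 0.0113 without penk-/- replicate 1, 0.0131 with the replicate block and 0.0150 without a filter (limma). Without a trend it was 0.0174, and with a pseudocount of 0.1 it was 0.0334 (limma). The smallest adjusted p, that with the block, was 0.224. Without both libraries with the most Pbsn, the difference was -0.20 (limma, unadjusted p = 0.194, adjusted p = 0.735).

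Epithelial markers were counted beside Pigr, which the epithelium makes. Of 12, 0 had an unadjusted p below 0.05, beside 9.63% of all genes. The estimates were below zero for 11 and above for 1, with a median log2 difference of -0.15. This median was -0.03 with quantile normalization, -0.08 without penk-/- replicate 3 and -0.08 without both libraries with the most Pbsn. Without penk-/- replicate 1 it was -0.23, and 5 of the 12 were lower at an unadjusted p below 0.05, beside 7.09% of all genes in that setting. With the replicate block 5 of the 12 were also lower at such a p, beside 8.28% of all genes. The summed level of the markers was 571598 to 787279 normalized counts in penk-/- and 700503 to 850294 in penk+/+ chimeras. The smallest p-values were those of Vil1, which bundles actin in microvilli (log2 difference -0.24, limma adjusted p = 0.534), and Epcam, an adhesion molecule (-0.18, limma adjusted p = 0.640). Relative to the mean of these markers, Pigr per kilobase was 1.69, 1.68, 1.85 and 1.57 on the log2 scale in penk-/- and 1.69, 1.81, 1.84 and 1.94 in penk+/+ chimeras. This ratio differed by -0.12 (exact permutation test, two-sided, p = 0.257, adjusted p = 0.549). Of the smooth muscle list, 0 of 8 genes had an unadjusted p below 0.05, again beside 9.63% of all genes. The smallest were those of Acta2 and Cnn1, and the median difference was 0.07. Of the T cell list, 0 of 7 had such a p (smallest for Cd3e and Cd8a, median -0.29) and of the red blood cell list 0 of 5 (smallest for Hba-a1 and Hbb-bs, median -0.26).

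Over the 8 mice Pigr followed the epithelial markers (r = 0.79, permutation p = 0.0159, adjusted 0.0239; rho = 0.857, permutation p = 0.0107, adjusted 0.0161), with r = 0.72 without the 2 mice farthest from the median of the marker mean and 0.74 with the genotype means subtracted. Pigr with Igha, the cargo of the receptor, gave r = 0.72 (permutation p = 0.0494, adjusted 0.0593) and rho = 0.714 (permutation p = 0.0576, adjusted 0.0691), which did not pass after adjustment, with r = 0.72 without the 2 mice farthest from the median of Igha. With the genotype means subtracted, r was 0.87, and without both libraries with the most Pbsn it was 0.62.

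A list of 20 genes that act on Pigr or move it through the cell was counted next. It holds factors of the NF-kB and interferon pathways, Usf1 and Usf2, the receptors of interleukin-17 and of bacterial products, and the Rab proteins and motor of transcytosis. Of the 20, 5 were lower and 0 higher in penk-/- chimeras at an unadjusted p below 0.05, beside 5.33% and 4.3% of all genes, and 0 passed the adjusted threshold. The median log2 difference of the list was -0.04. Rab17, a small GTPase of epithelial cells that acts in transcytosis, was at 501, 506, 368 and 557 normalized counts in penk-/- and at 663, 854, 691 and 857 in penk+/+ chimeras. Each penk-/- chimera was below every penk+/+ chimera, as for 2.74% of the genes tested (log2 difference -0.67, standard error 0.14, limma adjusted p = 0.325).

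Relb, a subunit of NF-kB, was at 1929, 1703, 1595 and 2009 in penk-/- and at 2640, 2537, 2049 and 2295 in penk+/+ chimeras, also without overlap (log2 difference -0.39, standard error 0.10, limma adjusted p = 0.339). The other genes of the 5 were Tlr4, the receptor of bacterial lipopolysaccharide (log2 difference -0.47), Myo5b, the motor of recycling vesicles (-0.32), and Irf2, a factor of the interferon pathway (-0.22), with adjusted p-values of 0.385, 0.450 and 0.488 (limma). The groups of Nfkb1 did not overlap either (log2 difference -0.12, limma adjusted p = 0.519). Usf1 and Usf2, whose recognition hexamer lies in the Pigr promoter printed above, differed by -0.01 and 0.09 (limma adjusted p = 0.975 and 0.691). Without both libraries with the most Pbsn, 3 of the 20 were lower at an unadjusted p below 0.05, beside 4.70% of all genes in that setting. With the replicate block 8 were lower and 1 higher, beside 8.28% of all genes lower in that setting. In the remaining settings 3 to 6 were lower.

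**Figure D5:**
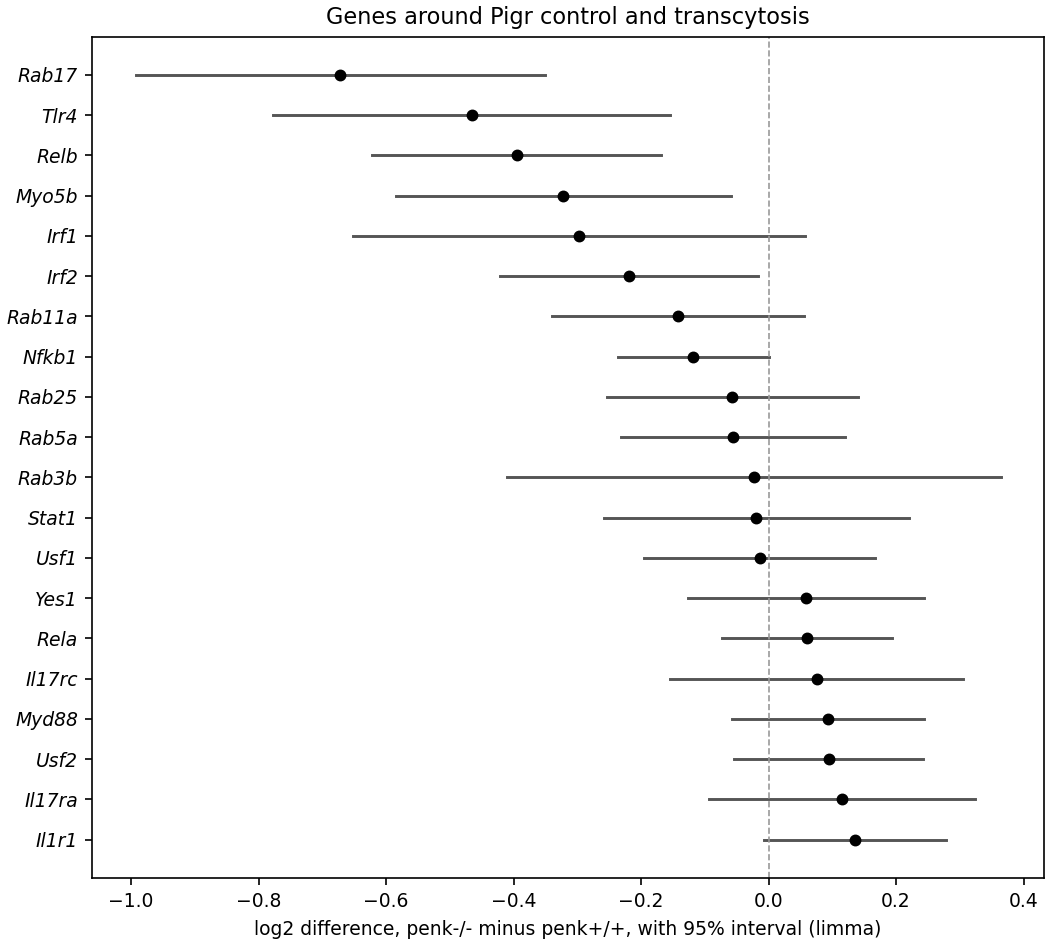
Difference between penk-/- and penk+/+ chimeras for the 20 genes of the list around Pigr control and transcytosis, ordered by size, with points for the estimate on the log2(normalized count + 1) scale and bars for the 95% interval of limma (n = 4 mice per genotype). The intervals of 5 genes lie below zero, from Rab17 at -0.67 to Irf2 at -0.22, and those of the other 15 include it.

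The signals that make B cells switch to IgA and that draw plasma cells to the gut were counted in the same way. Of 15 class switch genes tested, 1 was lower and 0 higher at an unadjusted p below 0.05, a count near the shares of all genes (5.33% and 4.3%). This was Smad3, which passes on the signal of transforming growth factor beta, at 2597, 2689, 2202 and 2692 in penk-/- and at 3240, 2661, 2844 and 2933 in penk+/+ chimeras (log2 difference -0.20, limma adjusted p = 0.501). The next was Tgfb1, the growth factor itself (log2 difference 0.32, limma adjusted p = 0.608), which differed in the opposite direction. Of 11 homing genes tested, 1 was lower and 0 higher, beside the same shares of all genes. Ccl20, a chemokine that the epithelium over lymphoid follicles makes, was at 199, 160, 172 and 298 in penk-/- and at 356, 840, 377 and 228 in penk+/+ chimeras (log2 difference -0.99, standard error 0.36, limma adjusted p = 0.449). Ccl25, a chemokine for gut-homing lymphocytes, came next (log2 difference 0.16, limma adjusted p = 0.637).

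Receptors and carriers of antibody other than Pigr gave 1 of 10 genes lower and 0 higher at an unadjusted p below 0.05, also beside 5.33% and 4.3% of all genes. This was Fcamr, the receptor for the Fc part of IgA and IgM, a relative of Pigr, at 521, 474, 473 and 442 in penk-/- and at 565, 510, 533 and 633 in penk+/+ chimeras (log2 difference -0.23, standard error 0.09, limma adjusted p = 0.475). Trim21, which binds antibody inside cells, had the next smallest p (log2 difference 0.16, limma adjusted p = 0.608). Fcgrt, the neonatal Fc receptor that carries IgG, differed by -0.08 (limma adjusted p = 0.792).

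Outside the 10 genes, those whose level over the 8 mice was most like that of Igha by Pearson's r were Tmem243 (0.99), Ly6c2 (0.98), Gm17229 (0.97), the kappa variable segment Igkv1-135 (0.96) and Tnfrsf17 (0.96). For Jchain they were Ly6c2 (0.99), Tmem243 (0.99), Atg12 (0.96), Tnfrsf17 (0.96) and Igkv5-43 (0.96). Ly6c2, a surface protein found on plasma cells among others, was at 117, 11.4, 18.9 and 38.7 in penk-/- and at 77.2, 76.1, 23.5 and 81.5 in penk+/+ chimeras. For Pigr the nearest were Slc40a1 (0.98), 4921531C22Rik (0.97), Radx (0.97), the heavy chain variable segment Ighv1-50 (0.97) and Gm30698 (0.97). Slc40a1, the iron exporter ferroportin, was at 18151, 13268, 11829 and 13140 in penk-/- and at 23892, 19202, 19776 and 25655 in penk+/+ chimeras, with the lowest and the highest mouse the same as for Pigr. With 8 points and 19127 genes searched, these are the ends of a ranking.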

How the data were processed

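Bulk poly-A RNA-seq of colonic biopsies was analysed for 4 penk-/- and 4 penk+/+ chimeric mice, with 1 library per mouse. Per the labels and the methods of the study, the authors made stranded paired-end libraries, used FastQC for read quality, STAR 2.7.8a with GRCm39 and Ensembl release 107 for alignment and counting, and DESeq2 1.30.0 for their own comparison. The deposited values are a normalized signal, read counts divided by 1 size factor per library, so they are not raw counts and not logarithms. All values of a library (100.0%, tolerance 0.001) were whole multiples of 1 step, from which its reads were estimated. In penk-/- replicate 1 the step is close to 1 (size factor 0.990), and a check on the unit of the values did not accept it. Of 26008 identifiers, 25776 matched GENCODE M39. No pair of libraries of the same genotype agreed within sampling noise (chi-square per degree of freedom at least 11.2). Pairs across genotypes were not compared in this way, and no sample was left out.

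Genotypes were compared with limma 3.58.1 (lmFit, eBayes with trend, R 4.3.3) on log2(value + 1), over 19127 genes with a mean of at least 10, two-sided, without covariates, with Benjamini-Hochberg adjustment over all of them. Fold changes on this scale understate the change of low genes. The fit was tested on simulated data. Shares, ratios and relations across mice were tested by exact permutation with Python 3.11.15, numpy 2.4.6, scipy 1.17.1 and pandas 2.3.3, and figures were drawn with matplotlib 3.10.9. Levels of different genes were compared per kilobase of union exon length, with the secreted transcript length as an alternative. Places within a library used normalized counts not divided by length, as did the first descriptions of the IgG and lambda genes. The p-values measure the spread between mice.

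The members and lists were chosen with earlier results of these data known. The genes named are the 10 members, the 2 genes of each list with the smallest p, and the 5 genes nearest to Igha, Jchain and Pigr by Pearson's r. Tlr4, Myo5b, Irf2, Nfkb1, Usf1, Usf2, Fcgrt, Derl3, Fkbp11, Tnfrsf17, Sdc1, Xbp1, Iglc1, Ighe, Penk, Pbsn, Myh11, Ms4a1, Cd22 and Fcer2a were named after their values were seen, some only as examples of a list. Alternatives were quantile normalization, a pseudocount of 0.1 or 8, a minimum mean of 50 or none, eBayes without a trend, a block for the replicate number, values not divided by length, each replicate left out in turn, and both libraries with the most Pbsn left out. The secreted transcript length and Tnfrsf17 alone as the plasma cell level were added after the data were seen. Some genes of the lists are not reported here by name.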

Additional observations from a re-analysis of the deposited data

Results flagged for a closer look

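In 4 of 60 groups of 4 mice examined, 1 mouse stood so far from the other 3 that its gap to the nearest, divided by the range of the group, was above Dixon's 95% critical value. About 1 in 20 groups, or 3 of 60, is flagged by chance, and none of the 4 was tested further.

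In penk-/- chimeras, replicate 1 had the highest Igha share of the heavy chain, 96.4% against 71.2% to 75.4% in the other 3 (gap over range 0.836), and the lowest Ighm share, 2.03% against 18.3% to 20.4% (gap over range 0.884). Both come from the same sum of 7 genes and are thus not independent. This mouse also had 0 counts of Pbsn and the smallest summed level of smooth muscle markers (163291), and the part of either in its shares was not tested. The other mouse with 0 counts of Pbsn, penk+/+ replicate 3, had the lowest Igha share of its genotype, 76.0%. Ighg3 was highest in penk-/- replicate 4, at 17.7 normalized counts against 4.04 to 5.81 (gap over range 0.870), with an estimated 16 reads behind the value. In penk+/+ chimeras, replicate 1 had the highest ratio of Jchain to Igha plus Ighm, -0.85 on the log2 scale against -1.10 to -1.07 in the other 3 (gap over range 0.884).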

How the results depend on the processing

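Over the alternatives run, Igha, Igkc, Jchain and Pigr stayed lower in penk-/- chimeras, and the smallest adjusted p of any member was 0.224, that of Pigr with the replicate number as a block. Genes with an adjusted p below 0.05 numbered 0 as reported, 1 with quantile normalization, 1 with the replicate block, and 0 to 6 when single mice were left out (6 without penk-/- replicate 1, none of them a member). At an unadjusted p below 0.05 they numbered 2938 with the block against 1842 without it. The deviations of same-numbered mice had correlations from -0.32 to 0.15, and in 0 of 4 numbers was the best match its own. The labels do not say what the number stands for, and 4 correlations cannot exclude a pairing. With single mice left out, 5 members turned direction, their log2 differences running from -0.19 to 0.52 for Ighm (-0.19 without penk-/- replicate 4, -0.14 without penk+/+ replicate 1), from -0.31 to 1.17 for Ighd, from -0.28 to 0.71 for Ighg1, from -0.0072 to 0.61 for Ighg2b and from -0.76 to 0.30 for Ighg2c. Ighd also turned, to -0.36, without both libraries with the most Pbsn. With single mice left out, the difference in kappa share ran from -1.21 to 0.24 percentage points (0.01 without penk+/+ replicate 3), that of Igkc over heavy chain from -0.14 to 0.026, and that of Jchain over Igha plus Ighm from -0.32 to -0.10. The IgA share difference ran from -14.2 to -5.82 percentage points with single mice left out. Without both libraries with the most Pbsn the IgA share differed by -4.88 and the kappa share by -1.36 percentage points. The other shares and ratios, 93 of 97 values, kept their direction and their side of 0.05. Part of this was fixed in advance. Without both libraries with the most Pbsn, and with the replicate block, the exact permutation test cannot give a p below 0.05. The block also leaves the difference itself unchanged. The values of these settings thus do not show stability against 0.05. The cause of these changes was not tested. The planned edgeR and DESeq2 fits on recovered reads were not run. A check on the unit of the values did not accept 1 library, whose step is close to 1, although all its values were whole multiples of that step. The 95% intervals of the log2 difference were -1.86 to 0.83 for Igha and -2.01 to 0.82 for Jchain (limma). With 4 mice per group, no difference within them was excluded. Ighg2c and Ighg3 also rest on few reads.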
